A study of Homo sapiens with 7 samples.

Results

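Collagens are the fibrous and sheet-forming proteins of the extracellular matrix, and the genes described here are the 44 protein-coding genes of the deposited table whose symbol is COL, a number, A and a number. They were taken by symbol out of 60675 gene identifiers. Each gene encodes an alpha chain, and chains wind around each other into a helix in the endoplasmic reticulum before secretion. Fibrillar chains (types I, II, III, V, XI, XXIV and XXVII) assemble into the fibres of connective tissue, and type IV chains form the network of basement membranes, the sheets under epithelia. Type VII builds the anchoring fibrils that tie a basement membrane to the stroma, and transmembrane collagens such as types XIII and XVII stay in the cell surface and take part in adhesion. The remaining classes are the fibril-associated collagens (FACIT), the beaded filament chains of type VI, the short-chain network collagens of types VIII and X, and the multiplexins XV and XVIII of the basement membrane zone. In breast tumours most fibrillar collagen is made by fibroblasts, whereas carcinoma cells make basement membrane and cell surface collagens of their own.

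RNA was sequenced from MDA-MB-231 cells, an established human triple-negative breast cancer line with a mesenchymal appearance, 2 days after lipid transfection. The siDEPDC1 group (4 libraries) received a small interfering RNA against DEPDC1, a DEP domain protein gene of dividing cells, and the siCTL group (3 libraries) a control siRNA in the same reagent and medium. Both groups are the same line in culture, without stroma or other cells to supply matrix, and the sequence of neither siRNA is given in the sources used here. No label says whether each library had its own culture dish, and p-values therefore cover only library-to-library spread, possibly technical.

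Library totals were 7690583 to 13483305 counts in siDEPDC1 and 11704246 to 15360409 counts in siCTL. DEPDC1 itself was at 15.3, 12.7, 13.4 and 11.9 CPM (reads counted on the gene, scaled to library size) in the siDEPDC1 libraries, against 114, 119 and 120.3 CPM in the siCTL libraries, which is -3.15 ± 0.075 (SE) on the log2 scale (adjusted p = 1.2e-26, edgeR quasi-likelihood). CPM use edgeR's TMM scaling, averages carry the SD between libraries, fold changes are siDEPDC1 over siCTL, and a gene was called at an Benjamini-Hochberg adjusted p under 0.05 over all 16583 tested genes. Of the line's markers, VIM and CD44 averaged 3671 and 427 CPM in siDEPDC1 and 3713 and 403 CPM in siCTL and were not called, while EGFR was lower at 462 CPM in siDEPDC1 and 562 CPM in siCTL (log2 fold change -0.28, edgeR adjusted p = 0.00018). Of the receptor genes that the triple-negative label refers to, ESR1 and PGR had 14 and 30 counts over all 7 libraries together, and ERBB2 averaged 66.0 CPM in siDEPDC1 and 64.5 CPM in siCTL.

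Collagen transcripts changed in both directions. Of 44 collagen genes 24 had enough counts to be tested, and 9 of these were lower and 9 higher in siDEPDC1, with 6 not called. Among all tested genes 34.4% were called, 17.9% as lower and 16.5% as higher, while 75.0% of the tested collagens were called. The 16 tested collagens with a mean of at least 5 CPM included 14 called (87.5%), against 40.2% of all tested genes at that level. Their median level was 80.3 CPM, against 34.4 CPM for all tested genes of at least 5 CPM. Called collagens had a median absolute log2 fold change of 0.65, beside 0.37 for all called genes, and the part of abundance in the share of calls was not tested. The median log2 fold change of the 24 tested collagens was 0.011, beside 0.00094 for all tested genes. It was -0.20 for the 16 of at least 5 CPM, with 9 lower and 5 higher, and 0.57 for the 8 under 5 CPM, with 0 lower and 4 higher. In 16 of the 24 the libraries of the groups did not overlap, 7 with siDEPDC1 below and 9 with siDEPDC1 above siCTL, against 37.3% of all tested genes. When 50 counts were required throughout a group's libraries 5 collagens were higher and 8 lower. The plot of changes by class shows type VI, type VIII and type XVIII chains called only as lower, FACIT chains and type VII called only as higher, and fibrillar and type IV chains on both sides. These classes hold 1 to 6 tested genes each, and no test of a class was made.

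**Figure D1:**
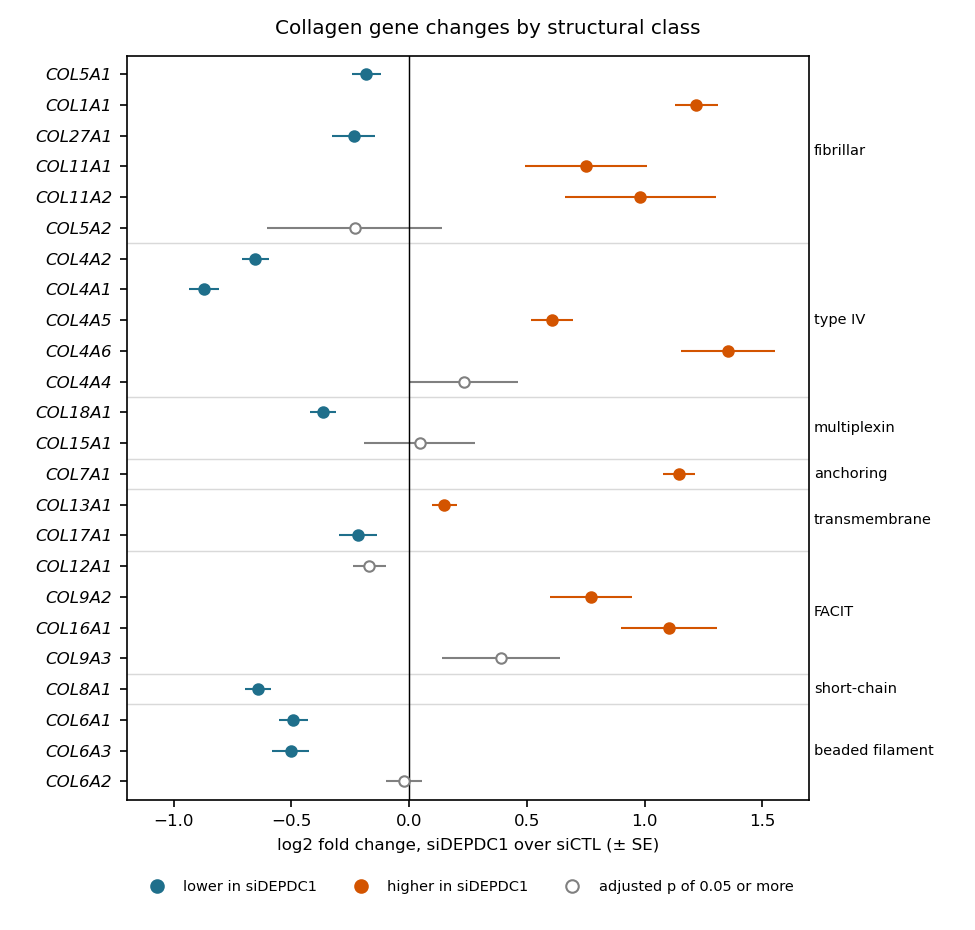
Log2 fold changes (siDEPDC1 over siCTL) of the 24 tested collagen genes with their standard errors, grouped by structural class; filled points passed an adjusted p of 0.05, in blue for lower and orange for higher. COL4A1 at -0.87 lies farthest to the left and COL4A6 at 1.36 farthest to the right, both in the type IV class.

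**Figure D2:**
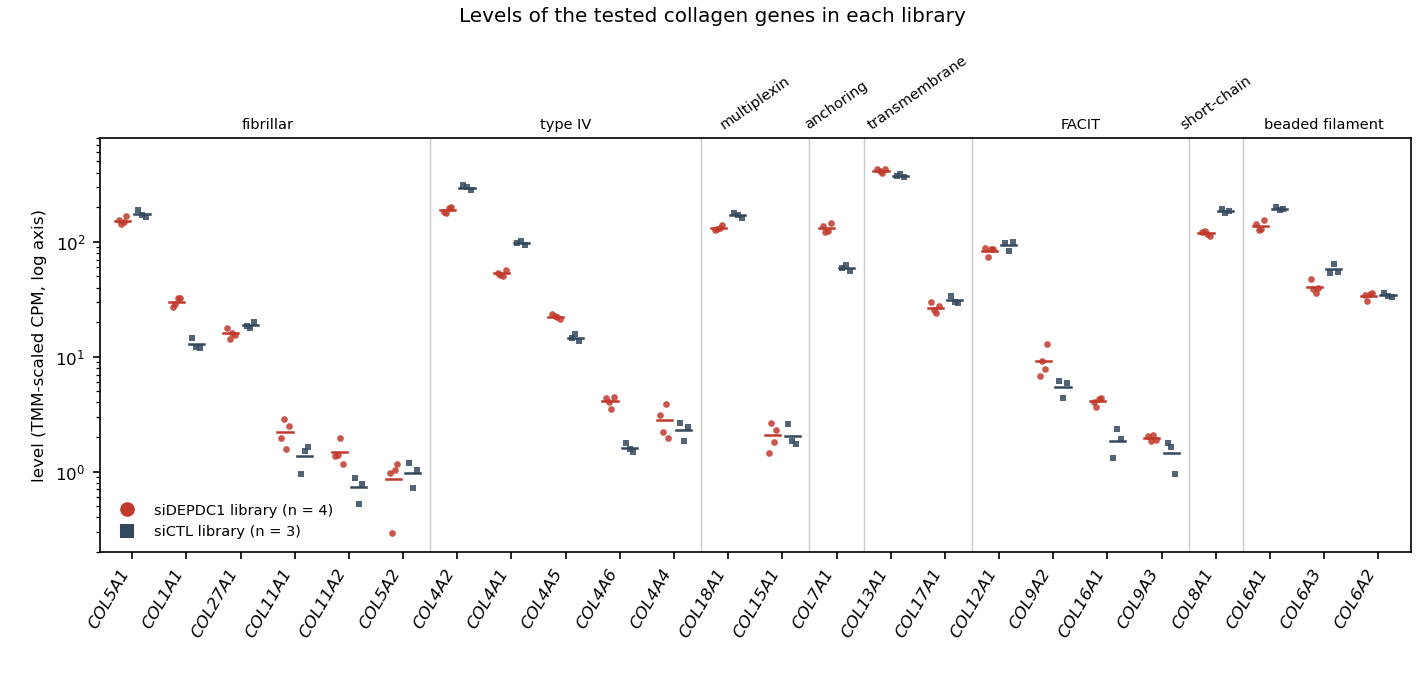
TMM-scaled CPM on a log axis in each siDEPDC1 library (red circles, n = 4) and siCTL library (dark squares, n = 3), with a bar at each group mean, for the 24 tested collagen genes by class. The red and dark points are apart for COL4A1, COL4A2, COL7A1, COL1A1 and COL8A1, and mix for COL6A2 and COL15A1.

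Type IV split into a pair of genes that fell and a pair that rose. Its chains are encoded in head-to-head pairs, COL4A1 with COL4A2, COL4A3 with COL4A4 and COL4A5 with COL4A6, each pair starting from a shared upstream region on opposite strands. COL4A1 and COL4A2 supply the network found in nearly all basement membranes, while COL4A5 and COL4A6 combine in the network of some epithelia and smooth muscle. The sequences around the starts are shown for COL4A1 with COL4A2 and for COL4A5 with COL4A6, since the genes of each of these pairs changed in the same direction. They are RefSeq windows of GRCh38.p14 from 250 bases before to 50 bases after an RNA start, read 5′ to 3′ on the strand of the named gene, with matches on either strand in capitals to the TATA box letters TATAAA, to the CCAAT box as written here, and to the GC box core GGGCGG.
COL4A2 (chr13:110307034-110307333, plus strand): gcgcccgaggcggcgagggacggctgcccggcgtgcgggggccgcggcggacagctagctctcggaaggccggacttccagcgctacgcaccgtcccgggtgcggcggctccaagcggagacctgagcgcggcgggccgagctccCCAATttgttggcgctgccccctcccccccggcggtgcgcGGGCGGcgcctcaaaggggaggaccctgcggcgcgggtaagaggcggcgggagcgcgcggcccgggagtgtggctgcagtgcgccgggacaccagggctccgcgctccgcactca
COL4A6 (chrX:108439409-108439708, minus strand): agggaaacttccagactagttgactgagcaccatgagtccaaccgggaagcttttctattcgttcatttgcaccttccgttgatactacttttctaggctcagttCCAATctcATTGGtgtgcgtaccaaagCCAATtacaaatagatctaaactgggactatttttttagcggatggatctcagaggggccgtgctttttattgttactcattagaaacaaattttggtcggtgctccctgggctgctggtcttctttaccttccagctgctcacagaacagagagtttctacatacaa
COL4A5 (chrX:108439588-108439887, plus strand): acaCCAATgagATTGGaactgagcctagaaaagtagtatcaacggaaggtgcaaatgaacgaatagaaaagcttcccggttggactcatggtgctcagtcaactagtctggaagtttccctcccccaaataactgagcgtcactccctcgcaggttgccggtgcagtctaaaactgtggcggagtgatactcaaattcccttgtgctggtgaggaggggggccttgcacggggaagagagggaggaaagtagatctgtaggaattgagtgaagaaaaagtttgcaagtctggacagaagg

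The COL4A2 window holds both starts of its pair, COL4A2 at position 110307284 and COL4A1 at 110307157, 127 bases apart. It is 77.7% G and C, with 1 CCAAT and 1 GGGCGG match. The COL4A1 window, not printed, shares 226 bases with it and holds 1 CCAAT and 2 GGGCGG matches. The COL4A5 start (108439838) and the nearer of the COL4A6 starts listed (108439458) are 380 bases apart. Their windows share 121 bases, which hold 2 CCAAT matches, in opposite orientations, and no GGGCGG; the windows are 49.3% and 43.7% G and C. CCAAT was present in 34.6%, GGGCGG in 44.9% and TATAAA in 11.6% of the 34943 promoter windows of the table, and in 31.8%, 54.5% and 18.2% of the 44 windows that belong to 32 collagen genes. Some of these genes count with several windows, and any collagen windows on chromosome 8 were left out of the 44 only. A match describes the letters in the window and does not show that a factor binds.

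COL4A1 (ENSG00000187498; GRCh38 chromosome 13, 110148963 to 110307233, minus strand, 52 exons in the transcript used) was at 53.8, 51.3, 50.8 and 57.4 CPM in the siDEPDC1 libraries, against 96.9, 102 and 93.9 CPM in the siCTL libraries. Every siDEPDC1 library lay far below every siCTL library. The log2 fold change was -0.87 ± 0.062 (SE; edgeR adjusted p = 1.7e-13), leaving 54.7% of the siCTL level. COL4A2 (ENSG00000134871; chromosome 13, 110305812 to 110513209, plus strand) was at 181, 178, 195 and 199.8 CPM in siDEPDC1, against 310.1, 297 and 281 CPM in siCTL, again with no overlap. It fell by 0.65 on the log2 scale (edgeR adjusted p = 2.1e-11). The antisense genes COL4A2-AS1 and COL4A2-AS2, which share 81 and 14 exon bases with COL4A2, had log2 fold changes of -0.78 and -0.63. No strand setting for the counting was found in the sources, so reads from the shared bases cannot be told apart.

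COL4A5 (ENSG00000188153; chromosome X, 108439844 to 108697545, plus strand) was at 23.4, 22.8, 22.3 and 21.1 CPM in the siDEPDC1 libraries, against 14.6, 15.6 and 13.7 CPM in the siCTL libraries. All 4 siDEPDC1 libraries were above all 3 siCTL libraries, and the gene rose 1.52-fold (log2 fold change 0.61 ± 0.088, SE; edgeR adjusted p = 1.2e-06). COL4A6 (ENSG00000197565; chromosome X, 108155607 to 108439497, minus strand), a much scarcer transcript, was at 4.40, 4.05, 3.52 and 4.45 CPM in siDEPDC1, against 1.77, 1.58 and 1.48 CPM in siCTL. It rose 2.56-fold, the largest rise of any tested collagen (log2 fold change 1.36 ± 0.20, SE; edgeR adjusted p = 1.5e-06). Of the remaining pair, COL4A4 averaged 2.80 ± 0.89 CPM in siDEPDC1 and 2.31 ± 0.42 CPM in siCTL and was not called (edgeR adjusted p = 0.46), and COL4A3 had 38 counts in all. Per kilobase of transcript, COL4A1 was 2.32 ± 0.21 times COL4A5 in siDEPDC1 and 6.48 ± 0.16 times COL4A5 in siCTL (SD, n = 4 and 3), so the common chain remained the more abundant one. The ratio of COL4A2 to COL4A1 per kilobase was 3.42 to 3.91 in the siDEPDC1 libraries and 2.97 to 3.26 in the siCTL libraries. Length here is that of 1 transcript per gene, and isoform use was not measured.

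**Figure D3:**
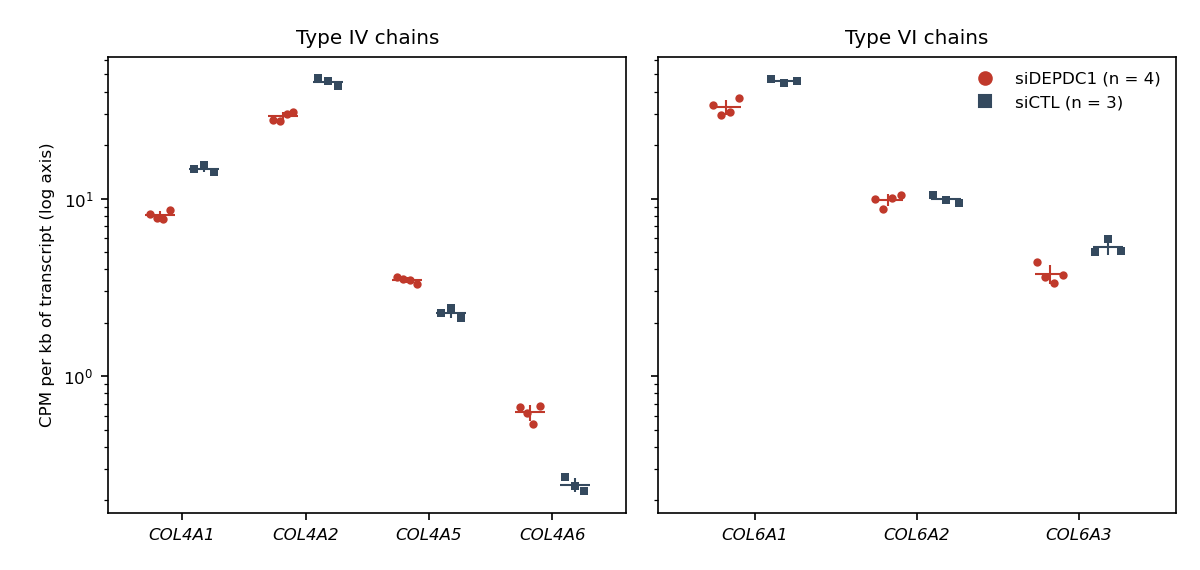
Levels per kilobase of transcript (CPM per kb, log axis) of the type IV chains of the common and the COL4A5 with COL4A6 pairs (left) and of the type VI chains (right) in each siDEPDC1 (red, n = 4) and siCTL (dark, n = 3) library, with mean and SD. Red points lie below dark ones for COL4A1, COL4A2, COL6A1 and COL6A3, above them for COL4A5 and COL4A6, and beside them for COL6A2.

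Type VII, the anchoring fibril collagen, rose more firmly than any other chain. COL7A1 (ENSG00000114270; chromosome 3, 48564073 to 48595267, minus strand), whose loss causes dystrophic epidermolysis bullosa in people, is spread over 118 exons. It was at 137, 122, 123 and 145 CPM in the siDEPDC1 libraries, against 59.6, 63.2 and 55.4 CPM in the siCTL libraries. Every siDEPDC1 library was far above every siCTL library. The log2 fold change was 1.15 ± 0.068 (SE; edgeR adjusted p = 1e-15), the smallest p of all collagens, and it ranged from 1.07 to 1.19 over the 16 alternatives. Per kilobase COL7A1 was 1.76 ± 0.062 times COL4A1 in siDEPDC1, but only 0.43 ± 0.011 times in siCTL, so their order reversed. Its promoter window, shown for comparison with the type IV windows, has a TATAAA match (on the opposite strand) and 3 GGGCGG matches, all in capitals.
COL7A1 (chr3:48595280-48595579, minus strand): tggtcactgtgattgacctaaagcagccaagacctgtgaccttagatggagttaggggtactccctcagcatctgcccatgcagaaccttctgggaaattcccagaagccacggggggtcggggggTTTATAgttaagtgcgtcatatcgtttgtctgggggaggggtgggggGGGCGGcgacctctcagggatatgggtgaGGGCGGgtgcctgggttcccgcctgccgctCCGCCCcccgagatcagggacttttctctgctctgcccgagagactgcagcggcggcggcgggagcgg

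The transmembrane collagens changed little. COL13A1 (ENSG00000197467; chromosome 10, 69801867 to 69964275, plus strand), found at cell adhesions and at the neuromuscular junction, was the most abundant collagen transcript of these cells per kilobase, at 131 ± 4.59 CPM per kb in siDEPDC1 and 118 ± 3.22 CPM per kb in siCTL. COL6A1, the next in order, reached 32.6 ± 3.13 CPM per kb in siDEPDC1 and 45.9 ± 1.28 CPM per kb in siCTL. COL13A1 was at 427, 415, 397 and 429 CPM in siDEPDC1 libraries, against 372, 388 and 369 CPM in siCTL libraries. It was higher by 1.11-fold without overlap (edgeR adjusted p = 0.028). That call was lost without siCTL replicate 1, 2 or 3 (edgeR adjusted p = 0.11, 0.051 and 0.11), with the replicate block (0.083), with no count filter (0.098) and after removal of a GC and length trend (0.069). COL17A1 (ENSG00000065618), a hemidesmosome component, was at 29.8, 25.5, 24.0 and 27.4 CPM in siDEPDC1 and 33.6, 30.2 and 29.5 CPM in siCTL, with overlap. It was called lower at -0.22 (edgeR adjusted p = 0.035), but not without siCTL replicate 1 or 2 (0.22 and 0.054), without siDEPDC1 replicate 2 or 3 (0.12 each), by library size alone (0.077) or by DESeq2 (0.092). COL23A1 and COL25A1 had 1 count each in all libraries together.

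Among fibrillar collagens COL1A1 rose and COL5A1 declined slightly. COL1A1 (ENSG00000108821; chromosome 17, 50183289 to 50201632, minus strand), the main chain of bone, skin and tendon collagen, was at 27.3, 28.8, 32.3 and 32.3 CPM in the siDEPDC1 libraries, against 14.4, 12.2 and 11.99 CPM in the siCTL libraries. All 4 siDEPDC1 libraries stood above the siCTL libraries, with a log2 fold change of 1.22 ± 0.091 (SE; edgeR adjusted p = 5.4e-13). COL1A2, whose product joins COL1A1 chains in tissue type I collagen, had 4, 3, 1 and 6 counts in the siDEPDC1 libraries and 1, 2 and 3 counts in the siCTL libraries, too few to test. COL3A1, the other major fibrillar gene of fibroblasts, had 9 counts in all. In both groups nearly all counts on the type I genes were on COL1A1.

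COL5A1 (ENSG00000130635; chromosome 9, 134641774 to 134844843, plus strand), which starts and thins collagen fibrils, was the most abundant fibrillar gene. It was at 155, 143, 147 and 167 CPM in siDEPDC1, against 188, 171 and 163 CPM in siCTL, with siDEPDC1 replicate 4 inside the siCTL range. It was called lower at -0.18 ± 0.061 (SE; edgeR adjusted p = 0.019), but not when siCTL replicate 1 (0.20), siDEPDC1 replicate 2 (0.10) or siDEPDC1 replicate 3 (0.075) was left out. Per kilobase, COL1A1 was 0.25 ± 0.023 times COL5A1 in siDEPDC1 and 0.093 ± 0.0034 times in siCTL. Its usual partner COL5A2 averaged only 0.87 ± 0.39 CPM in siDEPDC1 and 0.98 ± 0.23 CPM in siCTL and was not called (edgeR adjusted p = 0.67). COL27A1, a cartilage fibrillar gene, averaged 16.0 ± 1.49 CPM in siDEPDC1 and 18.7 ± 1.03 CPM in siCTL. Its call as lower (edgeR adjusted p = 0.047) was lost in 12 of 16 alternatives, among them each left-out library other than siDEPDC1 replicate 1, with adjusted p up to 0.19.

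The cartilage type XI genes were called higher at very low levels. COL11A2 averaged 1.47 ± 0.34 CPM in siDEPDC1 and 0.73 ± 0.18 CPM in siCTL (log2 fold change 0.98, edgeR adjusted p = 0.016), with no overlap. COL11A1 averaged 2.22 ± 0.58 CPM in siDEPDC1 and 1.37 ± 0.37 CPM in siCTL (log2 fold change 0.75, edgeR adjusted p = 0.022), with siDEPDC1 replicate 3 inside the siCTL range. The COL11A2 call was lost without siCTL replicate 2 (edgeR adjusted p = 0.11) or siDEPDC1 replicate 3 (0.050). The COL11A1 call was lost without siCTL replicate 1 (0.14), siDEPDC1 replicate 2 (0.12) or siDEPDC1 replicate 4 (0.050), and with the replicate block (0.068). Neither was called by DESeq2 (DESeq2 adjusted p = 0.072 and 0.10).

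In type VI, whose chains encoded by COL6A1, COL6A2 and COL6A3 form the beaded filaments around cells, COL6A1 and COL6A3 fell and COL6A2 was not called. COL6A1 (ENSG00000142156; chromosome 21, 45981737 to 46005050, plus strand) was at 142, 126, 130.1 and 155 CPM in siDEPDC1 libraries, against 200.3, 189 and 194 CPM in siCTL libraries. No siDEPDC1 library reached the siCTL range (log2 fold change -0.49 ± 0.062, SE; edgeR adjusted p = 7.7e-08). COL6A3 (ENSG00000163359; chromosome 2, 237324003 to 237414375, minus strand) was at 47.4, 39.1, 35.8 and 39.6 CPM in siDEPDC1, against 53.9, 63.9 and 54.6 CPM in siCTL. It too separated the groups, at -0.50 ± 0.079 (SE; edgeR adjusted p = 4.5e-06). COL6A2 (ENSG00000142173; chromosome 21, 46098097 to 46132849), on the same chromosome and strand as COL6A1, was at 34.3, 30.3, 35.04 and 36.2 CPM in siDEPDC1, against 36.1, 34.0 and 32.8 CPM in siCTL. These values mixed (log2 fold change -0.021 ± 0.076, SE; edgeR adjusted p = 0.86), and by library size alone the sign turned (0.0087). The ratio of COL6A1 to COL6A2 per kilobase was 3.03 to 3.51 in the siDEPDC1 libraries and 4.53 to 4.83 in the siCTL libraries, while that of COL6A1 to COL6A3 overlapped, at 7.59 to 9.94 and 7.52 to 9.42.

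The main genes of types VIII and XVIII fell. COL8A1 (ENSG00000144810; chromosome 3, 99638475 to 99799226, plus strand), a short-chain collagen of vessel walls and of the cornea, was at 122, 123, 117 and 112 CPM in siDEPDC1, against 194, 178 and 184 CPM in siCTL. The groups lay wide apart (log2 fold change -0.64 ± 0.056, SE; edgeR adjusted p = 2.7e-11). COL8A2 had 29 counts in all and was not tested. COL18A1 (ENSG00000182871; chromosome 21, 45405137 to 45513720, plus strand), a heparan sulfate collagen whose end fragment is endostatin, was at 127, 128, 133 and 139.9 CPM in siDEPDC1, against 178, 171 and 161 CPM in siCTL. It fell without overlap by 0.37 on the log2 scale (edgeR adjusted p = 4e-06). SLC19A1, the folate carrier gene on the opposite strand, shares 1401 exon bases with COL18A1 and had a log2 fold change of -0.42, and reads from the shared stretch cannot be told apart without a strand setting. COL15A1 averaged 2.06 ± 0.52 CPM in siDEPDC1 and 2.05 ± 0.46 CPM in siCTL and was not called (edgeR adjusted p = 0.91).

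FACIT collagens, which sit on the surface of fibrils, were called only as higher. COL16A1 (ENSG00000084636; chromosome 1, 31652247 to 31704319, minus strand) was at 4.01, 3.68, 4.30 and 4.37 CPM in siDEPDC1 libraries, against 1.33, 2.36 and 1.91 CPM in siCTL libraries. It rose 2.15-fold with no overlap (edgeR adjusted p = 5.2e-05). COL9A2 (ENSG00000049089; chromosome 1, 40300487 to 40317813, minus strand), a cartilage gene, was at 6.75, 9.21, 7.81 and 12.8 CPM in siDEPDC1, against 6.19, 4.33 and 5.91 CPM in siCTL. All siDEPDC1 libraries were higher, though they spread widely (log2 fold change 0.77 ± 0.17, SE; edgeR adjusted p = 0.0011). COL9A3, of the same type, averaged 1.96 ± 0.12 CPM in siDEPDC1 and 1.45 ± 0.44 CPM in siCTL and was not called (edgeR adjusted p = 0.24). It shares 45 exon bases with TCFL5 on the opposite strand, at 50.2 CPM in siDEPDC1 and 49.0 CPM in siCTL. The dominant FACIT gene was COL12A1 (ENSG00000111799; chromosome 6), a bridge between fibrils, at 87.5, 73.7, 87.0 and 87.1 CPM in siDEPDC1 and 98.3, 83.7 and 100.3 CPM in siCTL. It missed the threshold at -0.17 (edgeR adjusted p = 0.055). It was called lower without siCTL replicate 2 (0.012), siDEPDC1 replicate 1 (0.039) or siDEPDC1 replicate 4 (0.044), with the replicate block (0.044) and with no count filter (0.032). In 10 of 16 alternatives it stayed uncalled. The log2 fold change was -0.10 without siDEPDC1 replicate 2 (edgeR adjusted p = 0.29) and -0.060 after removal of a GC and length trend (0.42).

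The other 20 collagen genes were at the edge of detection, with at most 9 counts in any library. COL2A1 and COL6A5 had no count in any library, where a count of 0 allows up to 0.22 to 0.39 CPM in the siDEPDC1 libraries and up to 0.20 to 0.26 CPM in the siCTL libraries (a limit of 3 counts, which covers counting error only). The other 18 had 1 to 38 counts over all libraries together. They included the type X, XIV, XIX, XX, XXI, XXII, XXIV, XXVI and XXVIII genes, and none of the 20 was tested. COL19A1 had 1, 0, 1 and 1 counts in the siDEPDC1 libraries and 5, 2 and 3 counts in the siCTL libraries. COL21A1 had 1, 2, 1 and 3 counts in siDEPDC1 and 1, 1 and 0 counts in siCTL. Unlike the other untested collagens, these genes had no overlap between the groups in CPM, but the COL21A1 counts did overlap. The nearest siDEPDC1 and siCTL libraries were at 0.130 and 0.131 CPM for COL19A1, and at 0.098 and 0.074 CPM for COL21A1. These values lie below the limit of 3 counts. COL19A1 shares 70 exon bases with LMBRD1 on the opposite strand, at 19.2 CPM in siDEPDC1 and 24.9 CPM in siCTL. Reads from those bases cannot be told apart without a strand setting.

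Summed over all 44 genes, reads on collagen genes came to 1617 ± 67.1 CPM in siDEPDC1 and 1836 ± 52.9 CPM in siCTL. The sums and shares are not divided by transcript length, so long transcripts weigh more than in the levels per kilobase. The 4 siDEPDC1 sums of 1551 to 1700 CPM lay below the 3 siCTL sums of 1783 to 1889 CPM. Type IV genes held 16.8 ± 0.52% of the collagen sum in siDEPDC1 and 22.5 ± 0.41% in siCTL. Type VII held 8.14 ± 0.37% in siDEPDC1 and 3.24 ± 0.18% in siCTL, and the transmembrane genes 27.5 ± 0.80% in siDEPDC1 and 22.2 ± 0.67% in siCTL. Fibrillar genes held 12.6 ± 0.27% in siDEPDC1 and 11.4 ± 0.42% in siCTL, without overlap, while their summed level was 204 ± 11.97 CPM in siDEPDC1 and 209 ± 13.2 CPM in siCTL, with overlap. These sums describe the pool and were not tested.

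**Figure D4:**
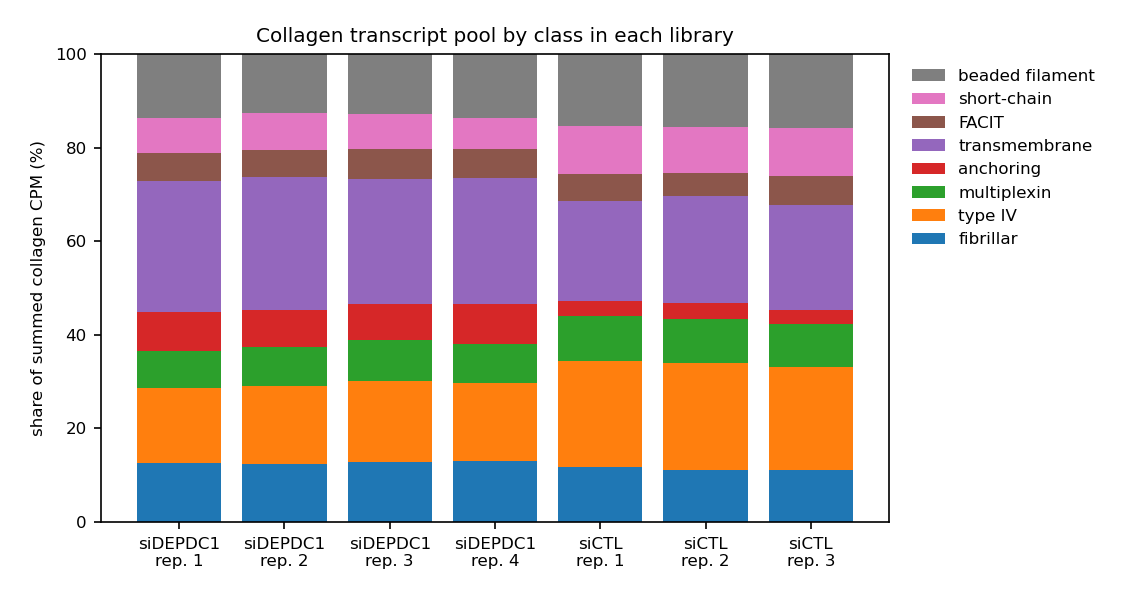
Share of the summed collagen CPM, not divided by transcript length, held by each structural class in the 4 siDEPDC1 and 3 siCTL libraries (bars stack to 100%, the class of types XXVI and XXVIII being too small to draw). The anchoring band of type VII is 7.81% to 8.53% in siDEPDC1 and 3.11% to 3.44% in siCTL, and the type IV band is narrower in every siDEPDC1 library.

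The falls were also set beside a 7-base word, GATAACT, which marks the 3′ UTRs of many genes that fell in these same libraries and was therefore picked on these data. Of 12338 tested genes with a 3′ UTR of at least 50 bases, 7.72% held it, among them 20.5% of those called lower and 3.42% of those called higher. Of the 44 collagens 2 held it, COL5A1 and the untested COL4A3, so 1 of the 9 collagens called lower carried a copy. The strongest falls, in COL4A1, COL4A2, COL8A1, COL6A3, COL6A1 and COL18A1, were in genes with no copy in the transcript searched. Whether the word has a part in any of these falls was not tested. The COL5A1 copy, shown because it is the sole one in a called collagen, lies in the last of 66 exons (GENCODE 29, GRCh38, chr9:134843325-134843331, plus strand), here in capitals within 30 bases.
COL5A1: tttttgtaggtGATAACTcaatgaaaattg

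Genes that modify, carry and crosslink collagen chains were called in both directions, with 8 lower and 10 higher of 28 tested (33 listed, median log2 fold change 0.11). Beside this count and those of the 3 lists that follow stand the shares of all tested genes, 17.9% lower and 16.5% higher. By library size alone the split was 5 lower and 10 higher, and 5 were lower without siDEPDC1 replicate 3. P4HA2 and P4HA1, catalytic subunits of prolyl 4-hydroxylase, which stabilises the helix, averaged 104 ± 0.48 and 139 ± 11.8 CPM in siDEPDC1, against 65.7 ± 3.17 and 97.96 ± 3.70 CPM in siCTL. Both rose, at log2 fold changes of 0.66 and 0.51 (edgeR adjusted p = 6.9e-11 and 5.7e-08). P3H4, a partner of a lysyl hydroxylase, rose 1.81-fold and the lysyl hydroxylase PLOD1 1.24-fold. The other higher genes were P4HA3, P4HB, PLOD2, PLOD3, P3H1 and the collagen chaperone gene SERPINH1, and the other lower genes were COLGALT2, MIA3, BMP1 and CRTAP, a partner of prolyl 3-hydroxylase; these were named after their values were seen. The prolyl 3-hydroxylase gene P3H2 was not called (log2 fold change -0.13, edgeR adjusted p = 0.11). MIA2 fell 1.55-fold, LOX 1.43-fold, COLGALT1 1.41-fold and LOXL1 1.30-fold. The related genes LOXL2, LOXL3 and LOXL4, also named after their values were seen, were not called (edgeR adjusted p = 0.34, 0.32 and 0.36). LOXL2 was far more abundant than LOX, at 487 ± 39.7 CPM in siDEPDC1 and 513 ± 20.8 CPM in siCTL. GATAACT was found in 6 of the 75 genes of the 4 related lists. Of the 21 called lower, 3 held it: LOX, COLGALT1 and MMP1. The others were LAMA4, which was called higher, ADAMTS3, which was not called, and MMP8, which was not tested. Among all tested genes searched, 7.72% held the word, and 20.5% of those called lower.

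Collagen receptors were lower in 4 and higher in 2 of 7 tested (10 listed, median log2 fold change -0.46). The collagen-binding integrin subunit ITGA10 fell 4.79-fold to 10.5 ± 1.62 CPM in siDEPDC1, against 50.7 ± 4.21 CPM in siCTL (edgeR adjusted p = 4.4e-20). ITGA1, the subunit that prefers type IV collagen, averaged 39.8 ± 5.75 CPM in siDEPDC1 and 68.1 ± 5.15 CPM in siCTL, and fell 1.704-fold (edgeR adjusted p = 1.7e-09). ITGA2, which prefers fibrillar collagen, fell 1.37-fold, and the receptor kinase DDR2 1.76-fold from a low level. ITGB1, the shared partner of these integrin subunits, was higher by 1.13-fold and the uptake receptor MRC2 by 1.24-fold. The ITGB1 call was lost without siCTL replicate 1 or 2 (edgeR adjusted p = 0.13 and 0.067) or siDEPDC1 replicate 2 (0.063).

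Proteases and their inhibitors had 3 lower and 3 higher of 10 tested (16 listed, median log2 fold change 0.13). The membrane protease MMP14 averaged 541 ± 29.02 CPM in siDEPDC1 and 706 ± 34.1 CPM in siCTL (edgeR adjusted p = 1.4e-06), and the collagenase MMP1 fell 1.81-fold to only 1.63 ± 0.49 CPM. The inhibitor TIMP2 averaged 620.1 ± 19.8 CPM in siDEPDC1 and 486 ± 6.73 CPM in siCTL (edgeR adjusted p = 3e-06), and TIMP3 rose 1.14-fold. TIMP3 lost its call without siCTL replicate 2 (edgeR adjusted p = 0.14). The call of MMP16 as higher (0.029) and that of the collagen-cutting cathepsin CTSK as lower (0.048) were less firm. MMP16 was not called without siCTL replicate 1 or 2 (0.071 and 0.19) or siDEPDC1 replicate 1 (0.15), and CTSK was not called without any 1 of 6 of the 7 libraries, siCTL replicate 3 being the exception (0.062 to 0.17). With the 50-count requirement 1 member was lower, and by library size alone 2 were lower and 4 higher.

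Among basement membrane partners of type IV collagen 6 were lower, 1 was higher and 6 were not called of 13 tested (16 listed, median log2 fold change -0.22). The laminin chain genes LAMB3, LAMC1 and LAMA5 fell 1.52-fold, 1.37-fold and 1.29-fold, led by LAMB3 at 408 ± 19.4 CPM in siDEPDC1 and 619.8 ± 31.1 CPM in siCTL (edgeR adjusted p = 8.7e-11). LAMA4, a laminin chain of vessels and muscle, rose 1.40-fold (edgeR adjusted p = 1.1e-06). The nidogen gene NID1, whose product links laminin to type IV collagen, had 3 counts in all libraries together. The other nidogen gene, NID2, averaged 2.66 ± 0.46 CPM in siDEPDC1 and 2.23 ± 0.44 CPM in siCTL. NID2 was not called (edgeR adjusted p = 0.33). All 4 lists are described by counts and medians, without a test of the list.

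**Figure D5:**
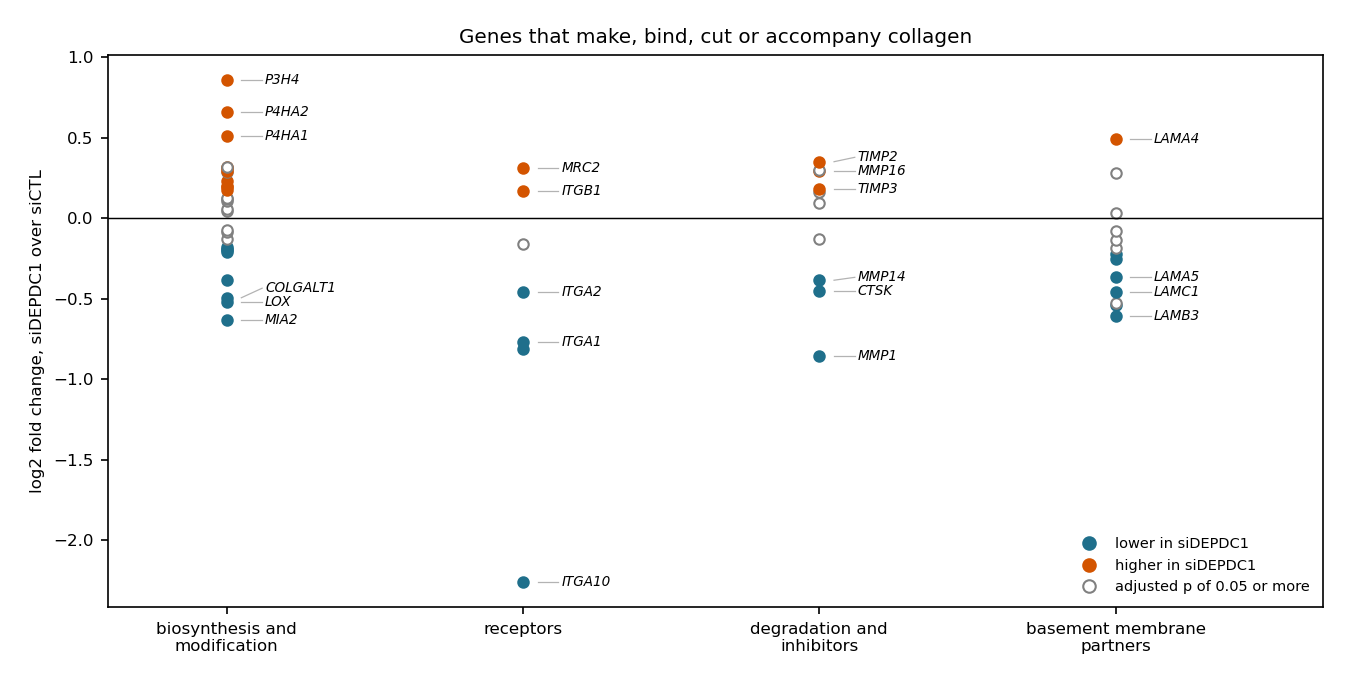
Log2 fold changes (siDEPDC1 over siCTL) of the tested genes of 4 related lists; filled points passed an adjusted p of 0.05, and the up to 3 called genes of smallest p in each direction are named. ITGA10 at -2.26 is the farthest of all, and P4HA1, P4HA2 and P3H4 lead the genes that rose.

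Since COL1A1 is also a fibroblast gene, markers of other cell types were examined beside its rise. Of 8 fibroblast markers without collagens, 2 could be tested and neither was called: PDGFRB (log2 fold change 0.33, edgeR adjusted p = 0.10) and ACTA2 (0.43, edgeR adjusted p = 0.080). The ACTA2 libraries of siDEPDC1 all lay above those of siCTL, while the PDGFRB libraries overlapped. All 8 markers together summed to 8.32 to 11.0 CPM in the siDEPDC1 libraries and 7.12 to 7.51 CPM in the siCTL libraries, without overlap. DCN was at 0 counts in all libraries, and PDGFRA, FAP and POSTN had 3, 3 and 1 counts in all. COL3A1 and COL1A2, which fibroblasts express beside COL1A1, were at the low counts given above. Of 4 haematopoietic markers CD14 was higher (log2 fold change 0.60, edgeR adjusted p = 0.028), and PTPRC, not tested, averaged 0.28 CPM in siDEPDC1 and 0.87 CPM in siCTL. The list summed to 2.95 to 4.19 CPM in siDEPDC1 and 2.58 to 3.41 CPM in siCTL. The 3 endothelial markers summed to 9.88 to 12.7 CPM in siDEPDC1 and 10.7 to 14.4 CPM in siCTL, nearly all of it PECAM1. All libraries are labelled as the same line in culture, with no other cell type named. Where these marker reads came from was not tested, and fewer cells of a kind and less RNA per cell cannot be told apart in bulk RNA.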

How the data were processed

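RNA was sequenced in 7 libraries, and the authors deposited raw counts per Ensembl gene and library. Per the labels' protocols, medium was replaced after 8 h, RNA was taken on day 2, and TruSeq libraries were read as pairs of 100 bases. Per the submitters' processing notes, GRCh38 was used, with STAR 2.7.9a, FastQC and DESeq2 listed without roles. The counter, the annotation release and any strand setting are not stated in those notes or labels. Names came from a gene table, and gene types, coordinates, transcripts and 3′ UTRs from GENCODE 29, which held 58444 of 60675 identifiers; promoters came from RefSeq (GRCh38.p14). All 7 columns were mapped to samples by name.

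Counts were filtered with filterByExpr and scaled by TMM and fitted on group alone in edgeR 4.0.16 (R 4.3.3; robust glmQLFit, then two-sided glmQLFTest). P-values were Benjamini-Hochberg adjusted over 16583 genes. Standard errors were derived from the F statistic. On simulated data the fit recovered 92.9% of 99 genes changed by 1 on the log2 scale, and 70.7% of 99 changed by 0.5. Named collagens were those called, those averaging 5 CPM or more, and their partner chains; from each related list up to 4 called genes per direction were named, and some listed genes are not reported here. Members, lists and the word were chosen with earlier results of these data known. Alternatives used other size factors, filters, DESeq2 1.42.0, limma-voom 3.58.1, a replicate block and left-out libraries. Removal of a GC and length trend (loess, span 0.4) was added after seeing the data. Same-numbered libraries did not deviate together (correlations of deviations -0.12, -0.042 and 0.0030 for numbers 1 to 3), so numbers were not treated as pairs.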

Additional observations from a re-analysis of the deposited data

Results flagged for a closer look

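In each of the following a siDEPDC1 library stood away from the other 3 by more than Dixon's 95% critical gap, among 50 genes examined; chance alone gives about 1 in 20. COL12A1 was at 73.7 CPM in siDEPDC1 replicate 2, against 87.0 to 87.5 CPM in the others. PLOD1 was at 209 CPM in siDEPDC1 replicate 4, against 188 to 190.1 CPM. LOXL1 was at 18.2 CPM in siDEPDC1 replicate 3, against 20.4 to 20.6 CPM. ITGA2 was at 645.8 CPM in siDEPDC1 replicate 1, against 519 to 532 CPM.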

How the results depend on the processing

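Across 16 alternatives, 12 of the 18 called collagens kept their direction and their call wherever they could be tested: COL4A1, COL4A2, COL4A5, COL4A6, COL7A1, COL1A1, COL6A1, COL6A3, COL8A1, COL9A2, COL16A1 and COL18A1. The other 6 (COL5A1, COL11A1, COL11A2, COL13A1, COL17A1 and COL27A1) lost the call in at least 1. Leaving out each library in turn gave 6 to 10 collagens lower and 7 to 9 higher. The 50-count requirement, under which 16 collagens could be tested, left 5 higher. With the replicate block on numbers 1 to 3, for which siDEPDC1 replicate 4 is left out, 9 were lower and 7 higher (2437 and 2292 of all genes), against 9 and 8 (2767 and 2627) for the same 6 libraries without the block. Directions turned only for 3 collagens that were not called in the main analysis or in these alternatives. COL6A2 had a log2 fold change of 0.0087 by library size alone and of -0.055 to 0.039 over the left-out libraries, positive without siCTL replicate 1 or siDEPDC1 replicate 2. COL5A2 ranged from -0.45 to 0.14 over the left-out libraries, positive without siDEPDC1 replicate 2. COL15A1 had -0.018 with the replicate block and -6.5e-05 for the same 6 libraries without it, and ranged from -0.12 to 0.24 over the left-out libraries. The cause was not tested. Library size alone moved the median of all genes by 0.030 on the log2 scale and gave 7 collagens lower and 9 higher, and 2581 and 3247 of all genes (44.3% of calls lower, against 52.1%). Depth limits the 8 tested collagens under 5 CPM, for which 4 of 8 were called, and the 20 untested ones.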
